A study of Mus musculus with 8 samples.

Results

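Cxcl9, Cxcl10 and Cxcl16, which encode CXC chemokines that attract T cells, were examined in bulk RNA-seq data of MC38 tumors. With them were examined Cxcl11, which belongs to the same family but is listed as a pseudogene in mouse, and Cxcr3. Cxcr3 encodes the receptor for the chemokines Cxcl9, Cxcl10 and Cxcl11. The 5 genes were chosen by name with earlier results of these data in view, including the difference between photoconverted and control tumors, so that this difference is described for them without a test. They are 5 of the 24421 genes of the raw count table, and all 5 were among the 14468 genes that passed the expression filter of edgeR. MC38 cells, a colon adenocarcinoma line of C57BL/6 mice, were injected (250000 cells) into 9-week-old female B6 Kaede mice, a strain that carries a fluorescent protein whose green emission turns red under violet light. On day 10, at a diameter of about 5 mm, 4 tumors (photoconverted) were exposed to 405-nm light for 3 min, and 4 tumors (control) were not exposed. All 8 tumors were collected in RNAlater 5 h after photoconversion, and the comparison asks whether the light itself changes gene expression in the tumor.

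Cxcl9 and Cxcl10 are secreted by myeloid, stromal and tumor cells in response to interferon, and they guide activated T cells and NK cells that carry Cxcr3. Cxcl9 depends mainly on IFN-gamma, whereas Cxcl10 is also induced by type I interferon and by NF-kB. Cxcl16 is made by macrophages and DCs as a membrane-bound protein, can be shed by the proteases Adam10 and Adam17, and binds Cxcr6 instead of Cxcr3.

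The genes for Cxcl9, Cxcl10 and Cxcl11 are neighbors on chromosome 5, all on the minus strand (GENCODE vM21, GRCm38). Cxcl9 (ENSMUSG00000029417.9) lies at chr5:92321347-92328079, Cxcl10 (ENSMUSG00000034855.13) at chr5:92346638-92348889 and Cxcl11 (ENSMUSG00000060183.6) at chr5:92359544-92365485. Cxcl16 (ENSMUSG00000018920.11) lies at chr11:70453983-70459984 and Cxcr3 (ENSMUSG00000050232.6) at chrX:101731535-101734269, also on the minus strand. GENCODE lists Cxcl11 as a polymorphic pseudogene and RefSeq lists it as a transcribed pseudogene, so its counts measure a transcript and not a chemokine protein. The gene Art3 runs on the opposite strand across both Cxcl10 and Cxcl11 and shares 133 exonic bases with Cxcl10. Zmynd15, also on the opposite strand, shares 552 exonic bases with Cxcl16. Whether strand was used in counting is not given in the sources used here. Art3 had 1.46 to 4.37 CPM (counts scaled to library size, not to length) and Zmynd15 had 3.63 to 10.8 CPM over the 8 tumors, against at least 251 CPM for Cxcl10 and at least 17.0 CPM for Cxcl16. Cxcl11, which shares 0 exonic bases with Art3, had 1.61 to 11.3 CPM, a range that overlaps that of Art3.

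The 250 bases before the start sites of Cxcl9 and Cxcl10 (RefSeq, GRCm38.p6, minus strand, written 5′ to 3′) are shown because these neighboring genes differed most in pattern across the tumors. Capitals mark a match to the interferon-stimulated response element core (TTTCNNTTTC), the gamma-activated site (TTCNNNGAA) or the NF-kB consensus, each searched on both strands.
Cxcl9, chr5:92328080-92328329: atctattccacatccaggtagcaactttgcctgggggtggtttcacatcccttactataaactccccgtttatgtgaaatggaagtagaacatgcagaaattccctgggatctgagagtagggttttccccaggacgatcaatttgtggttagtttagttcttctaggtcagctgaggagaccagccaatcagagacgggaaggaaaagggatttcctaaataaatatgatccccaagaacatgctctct
Cxcl10, chr5:92348890-92349139: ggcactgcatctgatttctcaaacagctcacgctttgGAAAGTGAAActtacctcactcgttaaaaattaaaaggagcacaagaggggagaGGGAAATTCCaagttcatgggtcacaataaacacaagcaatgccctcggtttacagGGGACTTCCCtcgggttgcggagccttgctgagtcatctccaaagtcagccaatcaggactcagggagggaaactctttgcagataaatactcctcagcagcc
The Cxcl10 sequence held the interferon-stimulated response element core, on the opposite strand, at -213 to -204 and the NF-kB consensus at -159 to -150 and at -103 to -94 from the start site. These matches did not overlap one another. Windows from 250 bases before to 50 bases after the start site of Cxcl9 and Cxcr3 held no match, which says only that these letters are not in these windows. Among 32544 promoter windows of the same length, 3.45% held the response element core, 8.33% the gamma-activated site and 4.53% the NF-kB consensus. A match is a description of the sequence and not of a bound factor. RefSeq promoter entries were matched for 3 of the 5 genes.

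Total counts were between 16735293 and 35844417 in photoconverted tumors and between 12576615 and 29439901 in control tumors. Rn45s, the precursor of ribosomal RNA, took over 10% of the counts in 3 libraries (photoconverted tumor 4, 21.9%; control tumor 2, 35.7%; control tumor 4, 23.2%) and 2.70% to 9.65% in the other 5, so values are also given for those 5 tumors alone (3 photoconverted and 2 control). The 3 libraries with the high share, 1 photoconverted and 2 control, are too few for a comparison among themselves. Colon epithelial markers were scarce for tumors of an epithelial line, with a summed level over 9 genes of 4.37 to 6.98 CPM and no count on Cdx2 in any tumor. In bulk samples, fewer cells of a type and less RNA per cell cannot be told apart.

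Cxcl10 was the only one of the 5 genes whose groups did not overlap. It had 473, 388, 611 and 372 CPM in photoconverted tumors 1 to 4, against 251, 274, 312 and 318 CPM in control tumors 1 to 4. Every photoconverted tumor was thus above every control tumor, the nearest values being 372 CPM in photoconverted tumor 4 and 318 CPM in control tumor 4. The mean was 461 ± 109 CPM in photoconverted tumors and 289 ± 32.0 CPM in controls (SD, n = 4 per group), a log2 fold change of 0.68 ± 0.18 (SE) or 1.60-fold. Among the 5 libraries whose Rn45s share was under 10% the log2 fold change was 0.80 ± 0.20. Over 15 alternatives of test, filter, scaling, pairing and left-out tumors it stayed between 0.51 and 0.80.

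**Figure D1:**
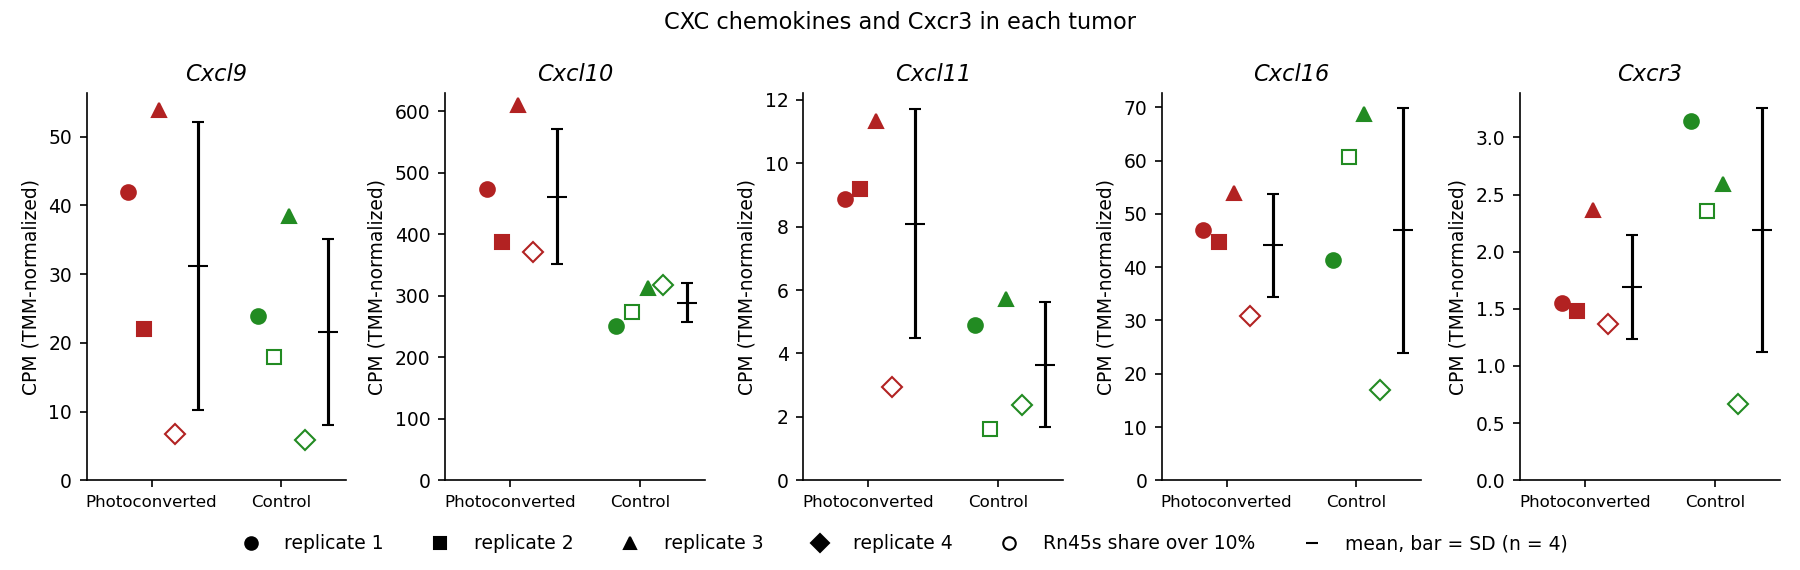
Expression of the 5 genes in CPM (linear axis, from 0) in each photoconverted (red) and control (green) tumor, with symbols for the replicate number, open symbols for libraries with an Rn45s share over 10%, and black bars for the mean and SD (n = 4). Cxcl10 is the only gene with no overlap between groups, from 372 CPM upward in photoconverted and up to 318 CPM in control tumors, and replicate 4 is low in both groups for Cxcl9.

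Cxcl9 varied widely between tumors of each group, and the photoconverted tumor was the higher in each same-numbered pair. Its levels were 42.0, 21.9, 53.9 and 6.70 CPM in photoconverted tumors 1 to 4, against 23.8, 18.0, 38.5 and 5.92 CPM in control tumors 1 to 4. The groups overlapped over most of their range, and the lowest value of each group was that of its tumor 4. Between the highest and the lowest of the 8 tumors there was a 9.10-fold difference, the widest of the 5 genes, against 2.44-fold for Cxcl10. The means were 31.1 ± 21.0 CPM and 21.6 ± 13.5 CPM (SD, n = 4 per group), with a log2 fold change of 0.53 ± 0.64 (SE). This value moved to 0.13 without photoconverted tumor 3, 0.35 without photoconverted tumor 1, 0.85 without photoconverted tumor 4, 0.97 without control tumor 3, 0.21 without control tumor 4 and 0.33 in the 5 tumors with a low Rn45s share. With the replicate number as a block it was 0.47 ± 0.14 (SE). The labels state no pairing, so this smaller SE rests on pairs taken from correlations in these same data.

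Cxcl11 had the widest difference of means on the log2 scale among the 5 genes, at low counts. It had 8.88, 9.19, 11.3 and 2.94 CPM in photoconverted tumors 1 to 4, from 355, 291, 288 and 43 counts. In control tumors 1 to 4 it had 4.88, 1.61, 5.72 and 2.38 CPM, from 171, 15, 161 and 39 counts. Photoconverted tumors 1, 2 and 3 were above every control tumor, whereas photoconverted tumor 4 lay within the control range. The log2 fold change was 1.12 ± 0.47 (SE), or 2.17-fold, between means of 8.09 ± 3.60 CPM and 3.65 ± 1.97 CPM (SD, n = 4 per group). It was 0.89 ± 0.18 in the 5 tumors with a low Rn45s share and lay between 0.89 and 1.41 over the 15 alternatives. The lowest library, control tumor 2, had the highest Rn45s share, and its 15 counts gave a 95% Poisson interval of 0.899 to 2.65 CPM, which covers counting error only.

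Cxcl16 did not separate the groups in either direction. It had 47.0, 44.7, 53.9 and 30.8 CPM in photoconverted tumors 1 to 4, against 41.4, 60.7, 68.7 and 17.0 CPM in control tumors 1 to 4. All photoconverted values lay inside the control range, and both tumors 4 were the lowest of their group. The means were 44.1 ± 9.70 CPM and 47.0 ± 23.0 CPM (SD, n = 4 per group), with a log2 fold change of -0.09 ± 0.37 (SE). The sign was not stable, since the value was 0.05 without photoconverted tumor 4, 0.05 without control tumor 2, 0.16 without control tumor 3, 0.04 with the replicate number as a block and 0.06 with limma. Without control tumor 4 it was -0.37.

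Cxcr3, the receptor, rested on the fewest counts of the 5 genes. It had 1.55, 1.48, 2.36 and 1.37 CPM in photoconverted tumors 1 to 4, from 62, 47, 60 and 20 counts. In control tumors 1 to 4 it had 3.14, 2.35, 2.59 and 0.671 CPM, from 110, 22, 73 and 11 counts. The control tumors held both the 2 highest values and the lowest value, so that the groups overlapped. Means were 1.69 ± 0.455 CPM in photoconverted tumors and 2.19 ± 1.06 CPM in controls (SD, n = 4 per group). The log2 fold change was -0.38 ± 0.42 (SE), opposite in sign to those of Cxcl9, Cxcl10 and Cxcl11. The value was -0.14 without control tumor 1, -0.59 without photoconverted tumor 3, -0.68 without control tumor 4, -0.20 with limma and -0.68 ± 0.29 in the 5 tumors with a low Rn45s share.

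**Figure D2:**
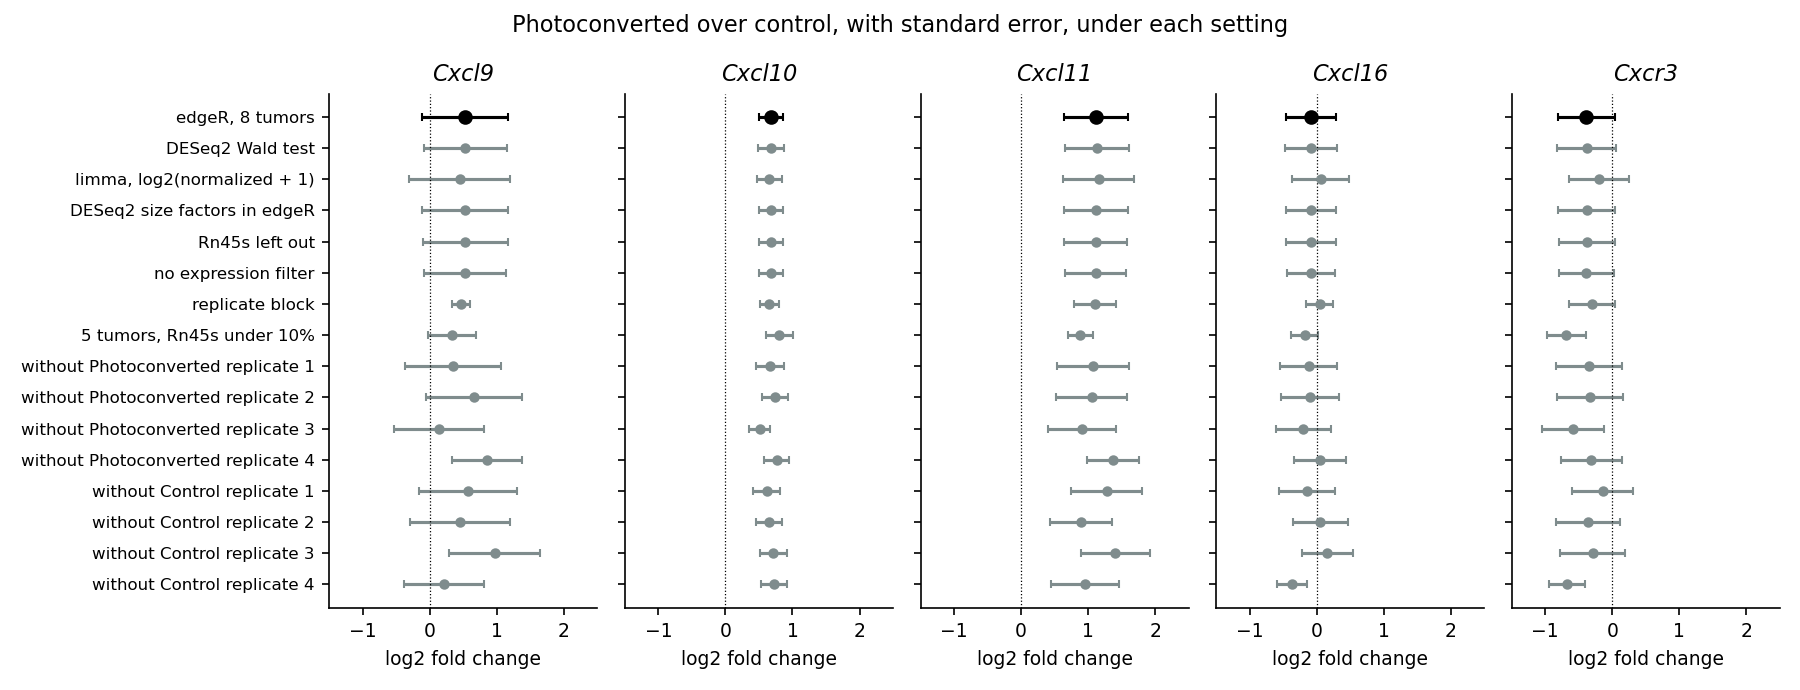
Log2 fold change of photoconverted over control tumors (x axis, 0 marked by a dotted line) with its SE for each of the 5 genes, for the edgeR fit of 8 tumors (black) and the 15 alternatives (gray). Cxcl10 stays between 0.51 and 0.80 and Cxcl11 between 0.89 and 1.41, Cxcl9 reaches from 0.13 to 0.97, Cxcl16 lies on both sides of 0, and Cxcr3 stays below 0.

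For scale, edgeR's quasi-likelihood test called 0 of 14468 genes at an adjusted p under 0.05 (0%), with 322 at an unadjusted p under 0.05. limma also called 0 of 14468 (0%), with 314 at an unadjusted p under 0.05, and DESeq2 called 24 of 16741 (0.143%). None of the 5 genes was called by edgeR, limma or DESeq2. Of all genes tested, 0.684% had every photoconverted tumor above every control tumor, as Cxcl10 did (1 of the 5 genes), and 0.643% had the reverse, as did 0 of the 5. The photoconverted tumor was higher in all 4 same-numbered pairs for 7.2% of the genes tested, and for Cxcl9, Cxcl10 and Cxcl11 among the 5. It was higher in 2 of 4 pairs for Cxcl16 and in 1 of 4 for Cxcr3. Since the genes were selected on this contrast, nothing is read from these counts.

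Compared per length, as CPM per kb of the median annotated transcript, the 4 Cxcl genes differed widely in level. Over the 8 tumors the mean level was 306 ± 96.8 for Cxcl10, 27.4 ± 9.88 for Cxcl16, 16.2 ± 10.5 for Cxcl9, 2.18 ± 1.33 for Cxcl11 and 1.12 ± 0.464 for Cxcr3 (CPM per kb, SD, n = 8). Cxcl10 made up 79.2% to 94.6% of the summed per-length level of the 4 Cxcl genes in every tumor. This order and its neighboring pairs were read from the same 8 tumors, so that differences within tumors are given with their spread and without a test. Cxcl10 exceeded Cxcl16 by 3.53 ± 0.72 on the log2 scale (mean difference and SD, higher in 8 of 8 tumors). Cxcl16 exceeded Cxcl9 by 1.01 ± 0.76 (7 of 8 tumors), and Cxcl9 exceeded Cxcl11 by 2.82 ± 0.81 (8 of 8 tumors). Between Cxcl11 and Cxcr3, the last neighbors, the difference of 0.81 ± 1.08 (7 of 8 tumors) was smaller than its spread between tumors. It was 1.10 without control tumor 2 and 0.31 with the longest transcript in place of the median.

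**Figure D3:**
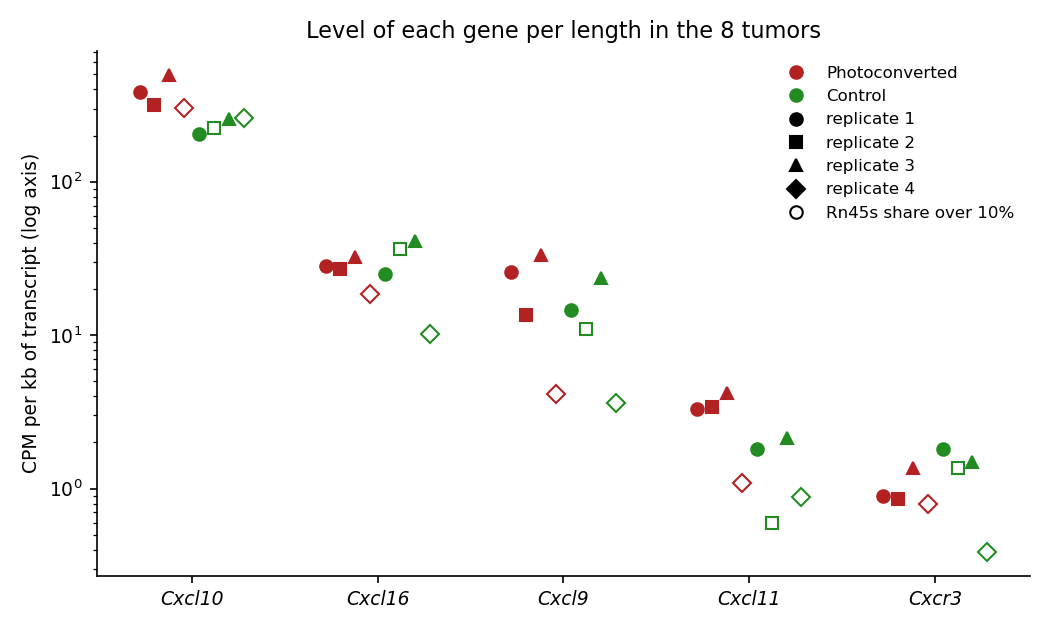
Level of each gene in CPM per kb of transcript (log axis) in the 8 tumors, photoconverted in red and control in green, with open symbols for libraries with an Rn45s share over 10%. The order runs from Cxcl10 (mean 306) through Cxcl16, Cxcl9 and Cxcl11 to Cxcr3 (mean 1.12), and the points of Cxcl11 and Cxcr3 overlap.

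Ratios of raw counts within a library do not depend on scaling between libraries, and they separated Cxcl9 from Cxcl10. Per 100 counts of Cxcl10, there were 8.87, 5.66, 8.83 and 1.80 counts of Cxcl9 in photoconverted tumors 1 to 4, against 9.51, 6.57, 12.3 and 1.86 in control tumors 1 to 4. The tumors numbered 4 had the 2 lowest ratios, at 1.80 and 1.86, and all others were at 5.66 or more, in both groups. Cxcl11 per 100 counts of Cxcl10 was 0.586 in control tumor 2, 0.749 and 0.790 in the tumors numbered 4, and 1.83 to 2.37 in the other 5 tumors, which were those whose Rn45s share was under 10%. Cxcl16 per 100 counts of Cxcl10 was 8.29 to 11.5 in photoconverted tumors and 16.5, 22.2, 22.0 and 5.36 in control tumors 1 to 4, so that control tumor 4 lay below every photoconverted tumor and the other 3 controls above. What part the Rn45s share has in these ratios was not tested.

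Cxcr3 is carried mainly by T cells and NK cells, so it was set beside the T cell receptor complex genes Cd3d, Cd3e and Cd3g. Their summed level was 8.83, 6.09, 10.4 and 4.78 CPM in photoconverted tumors 1 to 4, against 8.99, 10.1, 10.5 and 2.32 CPM in control tumors 1 to 4, with the lowest value of each group again in its tumor 4. Per 100 of these Cd3 counts, there were 17.6, 24.4, 22.7 and 28.6 Cxcr3 counts in photoconverted tumors and 34.9, 23.4, 24.8 and 28.9 in control tumors 1 to 4. The ratio spanned 1.99-fold over the 8 tumors, less than the 4.68-fold span of Cxcr3 itself, and the groups overlapped. Cxcr6, the receptor for Cxcl16, had 3.55, 2.08, 3.35 and 0.547 CPM in photoconverted tumors and 2.26, 3.75, 3.38 and 0.366 CPM in control tumors 1 to 4, with a log2 fold change of 0.01 ± 0.65 (SE). Per 100 Cd3 counts, Cxcr6 was at 11.4 and 15.8 in the tumors numbered 4 and at 25.1 to 40.2 in the other 6. In those tumors numbered 4 the ratio rests on only 8 and 6 Cxcr6 counts, over 70 and 38 Cd3 counts.

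**Figure D4:**
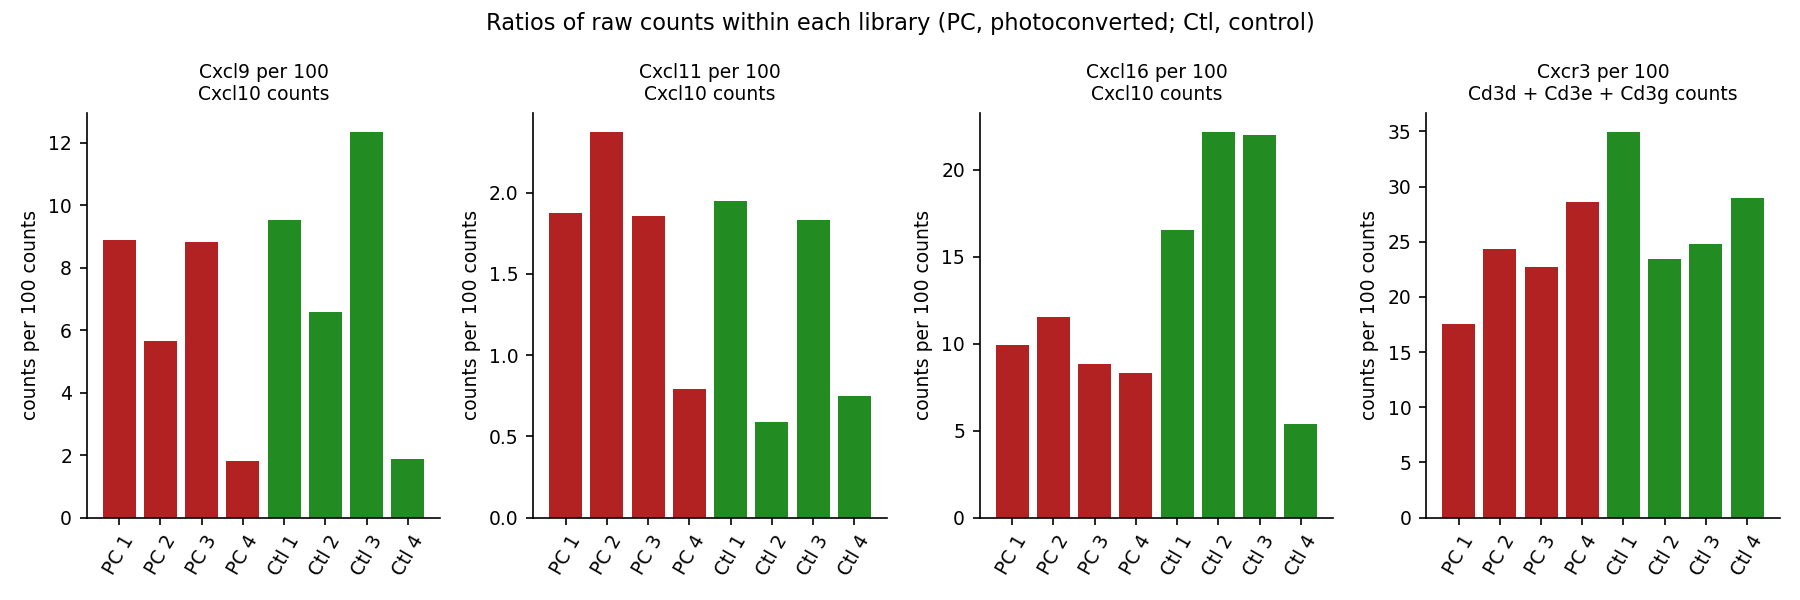
Raw counts of Cxcl9, Cxcl11 and Cxcl16 per 100 counts of Cxcl10, and of Cxcr3 per 100 summed counts of Cd3d, Cd3e and Cd3g, as 1 bar per library (red, photoconverted; green, control; axes from 0). Cxcl9 per 100 Cxcl10 is 1.80 and 1.86 in the tumors numbered 4 and at least 5.66 in the others.

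The pattern of each gene over the 8 tumors was compared with that of every other tested gene by the root mean square difference of log2 CPM, each gene centered on its mean. This is a description over 8 libraries that share their depth differences. Closest to Cxcl9 were Icos (0.23), a costimulatory receptor of activated T cells, Klrb1b (0.26), an NK cell receptor, and Cd28 (0.28), a costimulatory receptor of T cells, against a spread of Cxcl9 about its own mean of 1.10. Icos had 8.33, 4.80, 9.30 and 1.98 CPM in photoconverted tumors and 5.45, 4.07, 8.42 and 1.04 CPM in control tumors 1 to 4, with the same low tumors 4 as Cxcl9. Closest to Cxcl10 was Mx2 (0.12), an antiviral gene induced by interferon, followed by Arid5a (0.15), an RNA-binding regulator of inflammatory transcripts, and Rnf225 (0.16), against a spread of Cxcl10 of 0.40. Mx2 had 32.4, 24.2, 48.3 and 26.7 CPM in photoconverted tumors and 17.1, 18.3, 20.8 and 25.9 CPM in control tumors 1 to 4, so that it was not low in the tumors numbered 4.

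Closest to Cxcl11 were Rgs4 (0.22), a regulator of G protein signaling, Tnfaip6 (0.24), a hyaluronan-binding protein induced in inflammation, and Il1r2 (0.24), the decoy receptor for IL-1, against a spread of 0.94. All 3 were lowest, like Cxcl11, in photoconverted tumor 4 and control tumors 2 and 4. Closest to Cxcl16 were Itgax (0.09), which encodes CD11c of DCs and macrophages, Apol7e (0.12) and Nlrc3 (0.14), against a spread of 0.59. Itgax had 23.7, 21.9, 26.4 and 15.3 CPM in photoconverted tumors and 22.9, 35.8, 36.4 and 8.36 CPM in control tumors 1 to 4. Closest to Cxcr3 were Plxnc1 (0.13), a semaphorin receptor, Lair1 (0.14), an inhibitory receptor of leukocytes, and Xlr4a (0.17), against a spread of 0.63. Among the 5 genes themselves, Cxcl16 and Cxcr3 were the closest pair (0.35), and ranked 240 and 193 of 14467 genes by closeness to each other. Cxcl9 and Cxcl10 were the widest pair (0.99). By closeness to Cxcl10, whose own spread is small, Cxcl9 ranked 14140 of 14467 genes, whereas by closeness to Cxcl9, Cxcl10 ranked 4317.

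**Figure D5:**
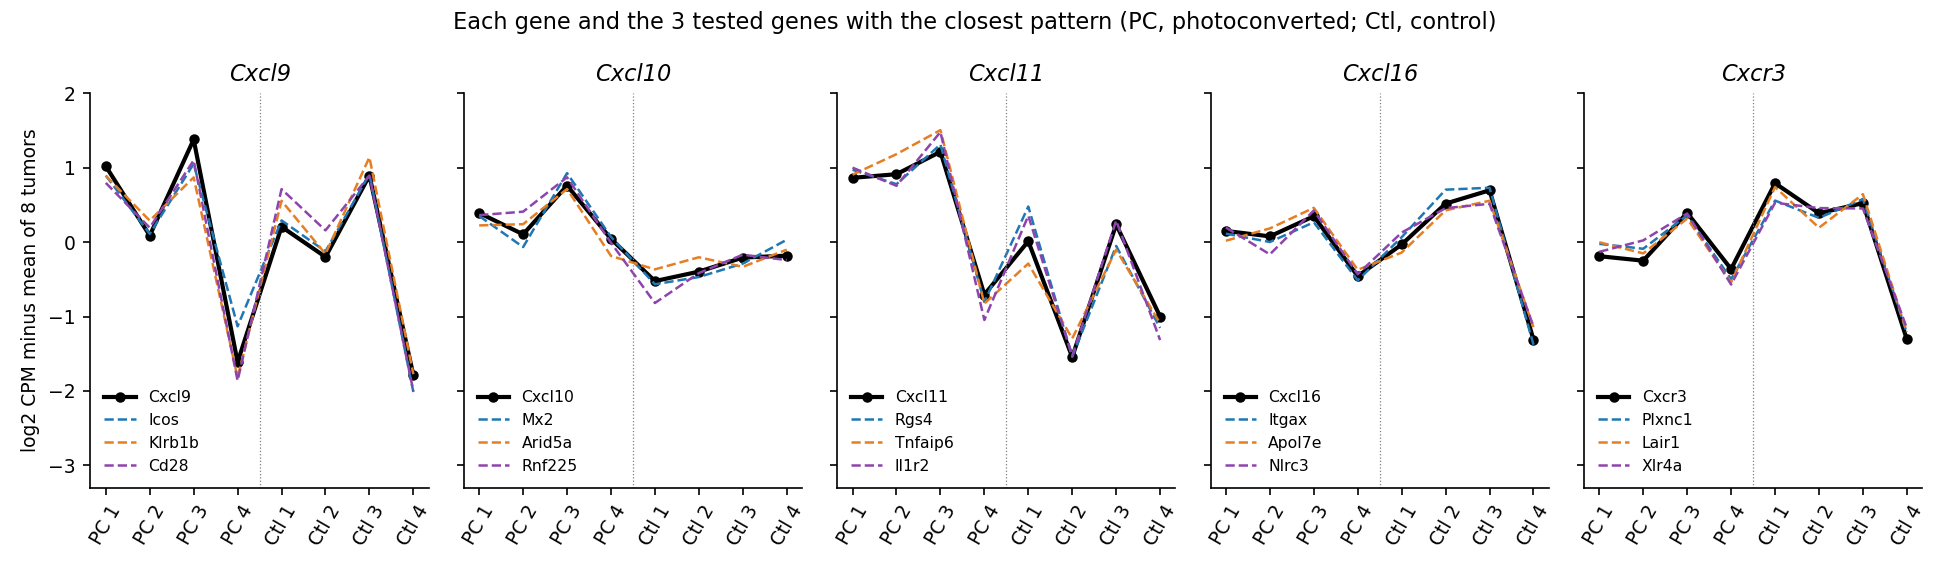
Log2 CPM of each of the 5 genes (black) and of the 3 tested genes with the smallest root mean square difference from it (dashed), centered on the mean of the 8 tumors, photoconverted tumors left and control tumors right of the dotted line. Cxcl9 and its closest genes drop in both tumors numbered 4, whereas Cxcl10 and Mx2 do not.

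Among the inducers of these chemokines, Ifng, the cytokine itself, had 2.28, 0.979, 2.92 and 0.410 CPM in photoconverted tumors 1 to 4, against 1.26, 0.535, 0.960 and 0.183 CPM in control tumors 1 to 4, with the lowest value of each group in tumor 4 as for Cxcl9. Its log2 fold change was 1.10 ± 0.64 (SE), from only 3 to 91 counts per tumor, so that its low values lie near the floor. Irf1, a transcription factor induced by IFN-gamma, had 159 to 294 CPM and 171 to 233 CPM in photoconverted and control tumors (log2 fold change 0.14 ± 0.20). In a list of 26 genes of the IFN-gamma axis, all tested, edgeR called 0 higher and 0 lower, 21 had a log2 fold change above 0, and the median was 0.28. Over all genes tested, 6768 of 14468 were above 0 and the median was -0.01. The median of the list was 0.10 without photoconverted tumor 3 and 0.14 without control tumor 4. Its genes with the smallest p were Gbp3 (log2 fold change 0.30 ± 0.13) and Irgm1 (0.46 ± 0.22), which act in defense against intracellular pathogens, and Cd274 (0.59 ± 0.30), which encodes PD-L1.

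Of 24 genes of the type I interferon axis, 23 were tested, 0 were called in either direction, 21 had a log2 fold change above 0, and the median was 0.21. Ifnb1 did not pass the filter. The smallest p were those of Mb21d1, which encodes the DNA sensor cGAS (log2 fold change 0.35 ± 0.11), Mx2 (0.68 ± 0.24) and Ifit1 (0.57 ± 0.21), an antiviral effector. Mb21d1 had 42.5 to 48.8 CPM in photoconverted tumors and 33.1 to 40.8 CPM in control tumors, without overlap, like Cxcl10. Gbp3 of the IFN-gamma list did not overlap either, with 185 to 217 CPM against 128 to 183 CPM. Each of these 2 lists held 1 such gene, against 0.684% of all genes tested. Since both genes were named for a small p, nothing is read from this. The summed level of the type I interferon list was 3279, 3312, 3960 and 3742 CPM in photoconverted tumors and 2631, 2852, 2968 and 3417 CPM in control tumors 1 to 4. Control tumor 4 was the highest control, as for Cxcl10. Photoconverted tumor 4 was above photoconverted tumors 1 and 2 by this sum, whereas it was the lowest of its group for Cxcl10. Among 18 genes of the NF-kB axis, all tested, 0 were called, 13 were above 0 and the median was 0.14 (0.08 without photoconverted tumor 3, 0.21 without photoconverted tumor 4 and 0.25 in the 5 tumors with a low Rn45s share). Its genes with the smallest p were Il1b (log2 fold change 1.14 ± 0.40), an inflammatory cytokine, Nfkbiz (0.39 ± 0.17), a nuclear NF-kB cofactor, and Ccl2 (0.89 ± 0.40), which attracts monocytes.

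None of the genes that process, bind or scavenge the ligands passed the test. Of 12 listed, 11 were tested (Ackr2 was not), 0 were called, 9 were above 0 and the median log2 fold change was 0.06, with -0.03 without control tumor 4 and 0.25 without photoconverted tumor 4 as the lowest and highest with a tumor left out. Adam10 and Adam17, the proteases that release Cxcl16, had values of 0.06 ± 0.25 and -0.03 ± 0.11 (log2 fold change, SE), and Adam17 ranged only from 103 to 123 CPM over the 8 tumors. Dpp4, which truncates Cxcr3 ligands, had a log2 fold change of -0.04 ± 0.82, with 20.4 CPM in control tumor 1 against 1.95 to 4.51 CPM in the other controls. The scavenging receptors Ackr3 (0.77 ± 0.64) and Ackr1 (0.75 ± 0.67), the platelet chemokine Pf4 (0.17 ± 0.41) and the scavenger receptor Cd36 (0.63 ± 0.53) had SEs close to or above their log2 fold changes.

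The other CXC ligands and receptors include the neutrophil attractants. Of 14 listed, 10 were tested and 0 were called by edgeR, all 10 had a log2 fold change above 0, and the median was 1.34. Cxcl5 (1.86 ± 0.44) and Cxcl1 (1.10 ± 0.36), which attract neutrophils, and their receptor Cxcr2 (2.07 ± 0.62) had the smallest p. DESeq2 called 1 of the list, Cxcl5, higher in photoconverted tumors, against 24 of 16741 genes (0.143%) in the whole series. Since the list was chosen with earlier results of these data known, nothing is read from this call.

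Markers of the cell types that make or carry these molecules were set beside them. Of 24 T and NK cell genes, all tested, 0 were called, 16 were above 0 and the median log2 fold change was 0.07, with summed levels of 110.0 to 267 CPM in photoconverted tumors and 82.9 to 212 CPM in control tumors. With a tumor left out the median reached from -0.20 (without control tumor 4) to 0.27 (without control tumor 3), and it was -0.07 without photoconverted tumor 3. Within each group the lowest sum was in tumor 4 and the highest in tumor 3, as for Cxcl9. The T and NK cell genes with the smallest p were Gzmb (0.91 ± 0.39), Ifng and Gzma (0.30 ± 0.26), the first and the last encoding granzymes. For 14 macrophage and monocyte genes, 0 were called, 7 were above 0 and the median was 0.03, with sums of 945 to 1986 CPM and 722 to 1839 CPM. This median was -0.21 without control tumor 4, -0.15 without photoconverted tumor 3, 0.25 without control tumor 1 and -0.10 in the 5 tumors with a low Rn45s share. The sum was lowest in tumor 4 of each group, as for Cxcl16. Cd14 (0.74 ± 0.28), an endotoxin coreceptor, Mrc1 (0.39 ± 0.46), the mannose receptor, and Fcgr1 (0.23 ± 0.24), an IgG receptor, had the smallest p of the list. Of 11 DC genes, 10 were tested, 0 were called, 3 were above 0 and the median was -0.17, with sums of 551 to 662 CPM and 539 to 858 CPM. Most of each sum was Fscn1, at 384 to 568 CPM in photoconverted and 330 to 591 CPM in control tumors. Among the genes tested, Flt3, Itgax, Clec9a, Cd24a, Ccr7, Cd209a and H2-Ab1 were lowest in tumor 4 of each group. Fscn1, Zbtb46 and Batf3 were not. The DC median was 0.07 without control tumor 1 and -0.38 without control tumor 4. Cd209a (1.46 ± 0.65), Cd24a (1.06 ± 0.61) and Batf3 (-0.47 ± 0.36) had its smallest p. The part of cell composition in the levels of Cxcl9, Cxcl16 and Cxcr3 was not tested.

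Other cell types also differed between libraries alongside the chemokines. Neutrophil genes (8 of 8 tested, 0 called by edgeR, all above 0, median log2 fold change 1.60) summed to 47.5 to 144 CPM in photoconverted tumors and 38.3 to 62.0 CPM in control tumors, with S100a8 (2.62 ± 0.70), S100a9 (2.53 ± 0.63) and Trem1 (1.66 ± 0.39) first by p. Photoconverted tumors 1, 2 and 3 had the highest sums of the 8, as they had the highest levels of Cxcl11, and the link between these was not tested. Skeletal muscle genes (10 of 10 tested, 0 called, all above 0, median 1.13) summed to 425, 695, 1441 and 179 CPM in the 4 photoconverted tumors and to 177 to 412 CPM in controls, and the median was 0.45 without photoconverted tumor 3, the highest library. Its first genes by p were Myh2 (1.32 ± 0.48), Tnnt3 (1.42 ± 0.62) and Acta1 (1.14 ± 0.51). Fibroblast and endothelial genes (8 of 8 tested, 0 called, 5 above 0, median 0.06) summed to 3500 to 4744 CPM and 3297 to 12492 CPM, the highest being control tumor 2, where Cxcl11 was lowest. That sum was mostly Col1a1, Col1a2 and Col3a1 (4607, 2585 and 5063 CPM). Dcn, Pdgfra and Pecam1 were lower there than in control tumors 1 and 3, and Cdh5 and Kdr lay between those tumors. A link with Cxcl11 was not tested. The median of the list was -0.07 without photoconverted tumor 3 and without control tumor 4, and 0.19 without control tumor 3. The first genes of the list by p were the collagens Col1a1 (-0.88 ± 0.57), Col1a2 (-0.68 ± 0.45) and Col3a1 (-0.44 ± 0.37). In the 5 tumors with a low Rn45s share these values were 0.22, 0.09 and -0.004. Col1a1 had 4607 CPM in control tumor 2, against 751 to 1086 CPM in the other controls. Skin epidermis genes (3 of 8 tested, Krt14, Krt10 and Sbsn, 0 called) summed to 14.3, 31.2, 39.2 and 14.6 CPM in photoconverted tumors 1 to 4 and to 8.88 to 18.5 CPM in controls. Only photoconverted tumors 2 and 3 were thus above the control range. The median over the 3 tested genes was 1.84 (3.38 with no expression filter and 1.16 with limma), with Sbsn at 0.13 ± 0.24. Of the epithelial genes 4 of 9 were tested, 0 were called, and the median was 0.15 (-0.12 without control tumor 1), with Cldn4 at 0.59 ± 0.37, Cdh1 at 0.26 ± 0.46 and Vil1 at -0.11 ± 0.36 (log2 fold change, SE).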

How the data were processed

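Bulk RNA-seq covered 4 photoconverted and 4 control MC38 tumors. Raw counts for 24421 gene symbols and a table of normalized signal values for 19823 were deposited by the authors. Each deposited normalized value was the raw count over a size factor of its library (0.416 to 1.77, as DESeq2 estimates them), and 4598 genes with at most 1 count in all were left out. The submitters' processing notes name CASAVA, FastQC, Trim Galore, HISAT2, featureCounts, DESeq2 and the mm10 build, with versions, strand setting and annotation not given in the sources used here. The kit is a SMARTER stranded one in the labels and a TruSeq stranded one in the study's methods. Reads shared between near-identical or overlapping genes may have been dropped or split in counting.

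Groups and replicate numbers came from the sample labels, which do not state that numbers mark a shared litter or day. The labels give 4 mice per group. Deviations from the group means correlated across genes between same-numbered tumors at 0.107 to 0.623 (4 of 4 over 0.1), against -0.600 to 0.482 for different numbers. Deviations cancel within a group for each gene, so positive values for same numbers push those for different numbers down. This contrast is thus partly built in. Of the photoconverted tumors, 3 of 4 correlated best with their own number. The exception, photoconverted tumor 3, reached 0.482 with control tumor 1 and 0.407 with control tumor 3. For photoconverted tumor 2 the margin was small, at 0.107 against 0.089 with control tumor 3. The highest value, 0.623, was between the tumors numbered 4, whose Rn45s shares were 21.9% and 23.2%. The numbers were treated as pairs on these correlations alone, and whether they mark a shared litter or day was not tested. The fold changes given are from the fit without the replicate number, and a fit with it as a block was made as an alternative. No pair of libraries within a group agreed within sampling noise (smallest chi-square per degree of freedom 26.1).

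Raw counts were tested with edgeR 4.0.16 (R 4.3.3; TMM, filterByExpr by group, glmQLFit, glmQLFTest, Benjamini-Hochberg adjustment over 14468 genes, threshold 0.05). CPM used TMM-scaled totals of the tested genes, and log2 CPM a prior count of 2. Transcript lengths and coordinates are those of GENCODE vM21 (GRCm38, the assembly of mm10). The tests were tried on simulated data with known changes. Alternatives were DESeq2 1.42.0, limma 3.58.1 on log2 of the normalized values plus 1, DESeq2's size factors, no filter, Rn45s left out, only the 5 tumors whose Rn45s share was under 10%, a replicate block, each tumor left out, and other lengths. The members and lists were chosen with earlier results of these data known. Named genes were the 5 members, 9 genes of their handling and induction (1 of which is not reported here), for each list the 3 or fewer genes lowest in p, and the 3 genes closest in pattern to each member. Art3, Zmynd15 and Cdx2, and the Cd3 genes, were named after their values were seen, as was Cxcl3 with the other genes called under alternatives.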

Additional observations from a re-analysis of the deposited data

Results flagged for a closer look

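Dpp4, which truncates Cxcr3 ligands, stood at 20.4 CPM in control tumor 1, far from the next control tumor at 4.51 CPM, with a gap of 0.861 of the range of the 4 control tumors. It was the only such value (1) among 28 groups of 4 tumors examined, and chance alone gives about 1 in 20 groups. The collagens were not among these groups. Col1a1, for one, had 4607 CPM in control tumor 2, against 751 to 1086 CPM in the other controls. The Dpp4 value is thus not the only outlying one in these data. The gap of Dpp4 was taken on the CPM scale. In log2 CPM, Dpp4 had 4.36, 1.62, 2.20 and 1.02 in control tumors 1 to 4, where the gap is a smaller part of the range.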

How the results depend on the processing

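Total counts of 12576615 to 35844417 per tumor left Cxcr3 with 11 to 110 and Cxcl11 with 15 to 355 counts, and 4 tumors per group limit every fold change. The signs of Cxcl9, Cxcl10, Cxcl11 and Cxcr3 were kept under all 15 alternatives, whereas that of Cxcl16 changed under 5. The number of genes past the threshold, 0 in edgeR, was 24 with DESeq2, 42 in the 5 tumors whose Rn45s share was under 10%, and 0 to 11 with each tumor left out, the 11 being without photoconverted tumor 4. The cause was not tested. With the replicate number as a block it was 0 (869 at an unadjusted p under 0.05), and the block changed no other call. Among the lists, 1 other CXC ligand was called with DESeq2 (Cxcl5) and 1 in the 5 tumors with a low Rn45s share (Cxcl3), where 1 macrophage gene (Cd14) was also called. Neutrophil genes called were 3 with DESeq2 and 3 in those 5 tumors (S100a8, S100a9 and Trem1 in each), and 0 to 2 with each tumor left out (S100a9 and Trem1 without photoconverted tumor 4). The medians of 6 lists changed sign under at least 1 alternative (ligand handling, T and NK cells, macrophages, DCs, epithelial genes, and fibroblasts and endothelium). The per-length difference of Cxcl11 and Cxcr3 was 0.64 to 1.10 with each tumor left out. Every difference in level order, this one among them, kept its direction under all 10 alternatives.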
